A study of Mus musculus with 6 samples.

Results

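The DNA replication and G1/S genes are 39 genes that load, start and run the replication fork, make its nucleotides or drive entry into S phase. They were chosen by gene symbol, and the brightest probe set on average stands for each gene. All 39 had at least 1 probe set, 88 in all, and all 39 passed the filter on low values, among 18194 genes named on the array and 12565 tested. The arrays measured bulk RNA of mouse T cell leukemias, on a log2 scale as deposited. The wild-type group has 3 arrays of leukemias grown from bone marrow progenitors of C57BL6 donors, and the knockout group has 3 arrays of leukemias grown from progenitors of Sh2b3-/- donors. Donors of both groups were 8 weeks old. All progenitors were lineage-depleted and infected with MigR1-ΔE-Notch1, a retrovirus that carries an activated, truncated NOTCH1. The labels give the strain for the wild-type arrays only, and the source name of the knockout arrays reads Sh2b-/-. In both groups 50000 infected cells, selected as Lin-Sca1+, were injected into irradiated C57BL6 recipients, so that all 6 leukemias carry the same oncogene and arose in wild-type hosts. The labels give GFP, CD4 and CD8 for following blood only, and do not say that tumour cells were sorted from host cells before RNA was taken. The titles read biological replicate, the protocol gives triplicate isolations of RNA, and no array is tied to an animal. The p-values therefore measure only how far these 6 samples scatter, and some of that scatter may be technical.

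Before a cell divides, its replication origins are licensed in G1, when ORC, CDC6 and CDT1 load rings of MCM helicase onto DNA. The kinases CDC7 and CDK2 then recruit CDC45 and GINS to the rings, and polymerases copy the opened strands while the clamp PCNA, set in place by the RFC clamp loader, holds them on the template. Many of these genes are transcribed together by E2F factors once the retinoblastoma protein is phosphorylated, so that their shared level is widely used as a reading of how many cells of a sample are in or near S phase. Leukemic T cells driven by NOTCH1 are known to cycle rapidly. Sh2b3 encodes LNK, an adaptor that restrains cytokine receptor signalling, and the comparison of genotypes shows how the replication genes read in leukemias without it.

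E2F sites were looked for in the promoters of the members, in order to show a sequence that some of these genes share. Promoter windows of 300 bases, 250 before to 50 after a gene's start, were taken from RefSeq on GRCm38.p6 and were matched by symbol for 32 of the 39 members. The motif TTTCGCGC or TTTGGCGC, on either strand, was present for 11 of the 32 members, 34.4%, against 0.929% of all genes with a window. The sites are printed below on the strand of the gene with 10 bases on each side, fewer where the window ends, and with the motif or its reverse complement in capitals. Positions count from the start of the gene, with no 0. A single site is shown where a window held several.
Orc1, chr4:108579417-108579444, plus strand, first capital at -27: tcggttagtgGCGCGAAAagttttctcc
Cdt1, chr8:122568037-122568064, plus strand, first capital at +33: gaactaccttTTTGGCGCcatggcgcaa
Mcm3, chr1:20820263-20820284, minus strand, first capital at +39: cttgggaagtTTTGGCGCcaag
Mcm5, chr8:75109346-75109373, plus strand, first capital at -153: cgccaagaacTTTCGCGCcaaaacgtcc
Mcm6, chr1:128359735-128359762, minus strand, first capital at -47: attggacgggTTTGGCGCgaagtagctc
Mcm7, chr5:138171850-138171877, minus strand, first capital at +17: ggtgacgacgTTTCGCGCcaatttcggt
Pola1, chrX:93632276-93632303, minus strand, first capital at -138: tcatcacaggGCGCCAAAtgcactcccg
Rfc3, chr5:151651201-151651228, minus strand, first capital at -10: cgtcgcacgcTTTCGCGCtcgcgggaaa
Lig1, chr7:13278842-13278869, plus strand, first capital at +27: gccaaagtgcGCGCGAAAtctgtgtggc
E2f2, chr4:136172303-136172323, plus strand, first capital at +40: cggcatatagTTTGGCGCtaa
Uhrf1, chr17:56304118-56304145, plus strand, first capital at -185: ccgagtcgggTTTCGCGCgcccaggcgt
In Mcm5 the motif shown overlaps another on the opposite strand, and Mcm6 holds such an overlapping pair further upstream. A match is a description of these letters and not a measured binding site.

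Neither of the other motifs searched on both strands stood as far from all genes. CCAAT, the box bound by NF-Y, was present for 18 of 32 members, 56.2%, against 41.1% of all genes. TTTGAA, a core often found in promoters of mitosis genes, was present for 7 of 32, 21.9%, against 20.2%. The members with an E2F motif had mean values, relative to their wild-type means, of -0.39, 0.08 and 0.17 on knockout arrays 1, 2 and 3. The 21 members with a window and no such motif had -0.39, 0.15 and 0.33 on the same arrays. Both sets were therefore low on knockout array 1 and high on knockout array 3. No match says only that these letters are not in the window.

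The libraries were checked before the members were compared. Sh2b3 read 4.25, 4.83 and 4.08 on wild-type arrays 1, 2 and 3 and 2.29, 2.24 and 2.29 on the knockout arrays, a difference of -2.11 (knockout minus wild type, as throughout; adjusted p = 0.158, limma). Wild-type arrays 1 and 2 stood close together: the SD of their difference over the 39 members came to 0.190, where each of the other 14 pairs had 0.287 to 0.472. They were also averaged into 1 sample as an alternative. Of 8 T cell markers 7 were measured, with mean log2 signals of 9.44 to 10.23 in wild type and 9.25 to 9.95 in knockout, and Cd3d read 12.13 to 12.63. Cd4 was low throughout, at 2.23 to 4.63. Of the B cell markers 5 of 6 were measured, with Cd79a and Pax5 below 3 in mean log2 signal, and with group ranges of 3.51 to 4.01 in wild type and 3.67 to 4.83 in knockout. Set against wild type, their mean stood at 0.75, 1.05 and -0.12 on knockout arrays 1, 2 and 3. All 6 myeloid markers were measured, with means of 5.60 to 6.41 in wild type and 5.91 to 6.18 in knockout and with Itgam and Elane below 3. Of the erythroid markers 4 of 6 were measured, with means of 5.21 to 5.49 in wild type and 5.02 to 5.80 in knockout, and Hba-a1 fell below the filter. In bulk RNA, fewer cells of a type and less RNA per cell cannot be told apart.

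As a group the replication genes differed little in average level between knockout and wild-type leukemias, and more from array to array. The mean over the 39 members, relative to each gene's wild-type mean, was -0.07, -0.11 and 0.18 on wild-type arrays 1, 2 and 3 and -0.33, 0.11 and 0.28 on knockout arrays 1, 2 and 3. The knockout arrays thus held both the lowest and the highest level of the programme, and the wild-type arrays lay between them. The SD between arrays was 0.161 in wild type and 0.316 in knockout (n = 3 each), and the knockout mean exceeded the wild-type mean by 0.02, far less than either SD, and was below it with wild-type replicates 1 and 2 averaged (-0.03). Over all genes tested, the same means stayed between -0.06 and 0.01. Of the members 18 had a higher mean in knockout, 20 a lower mean and 1, Rrm2, equal means; 48.1% of all genes tested had a higher mean in knockout. Centring each array on its median moved the median difference of all genes from -0.01 to 0.13. With it 29 members stood higher. Centring shifts every gene of an array alike, so the count of members above the median of all genes stayed at 22 by construction. The same holds for each gene group below. After quantile normalization the count of members above that median was 19.

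**Figure D1:**
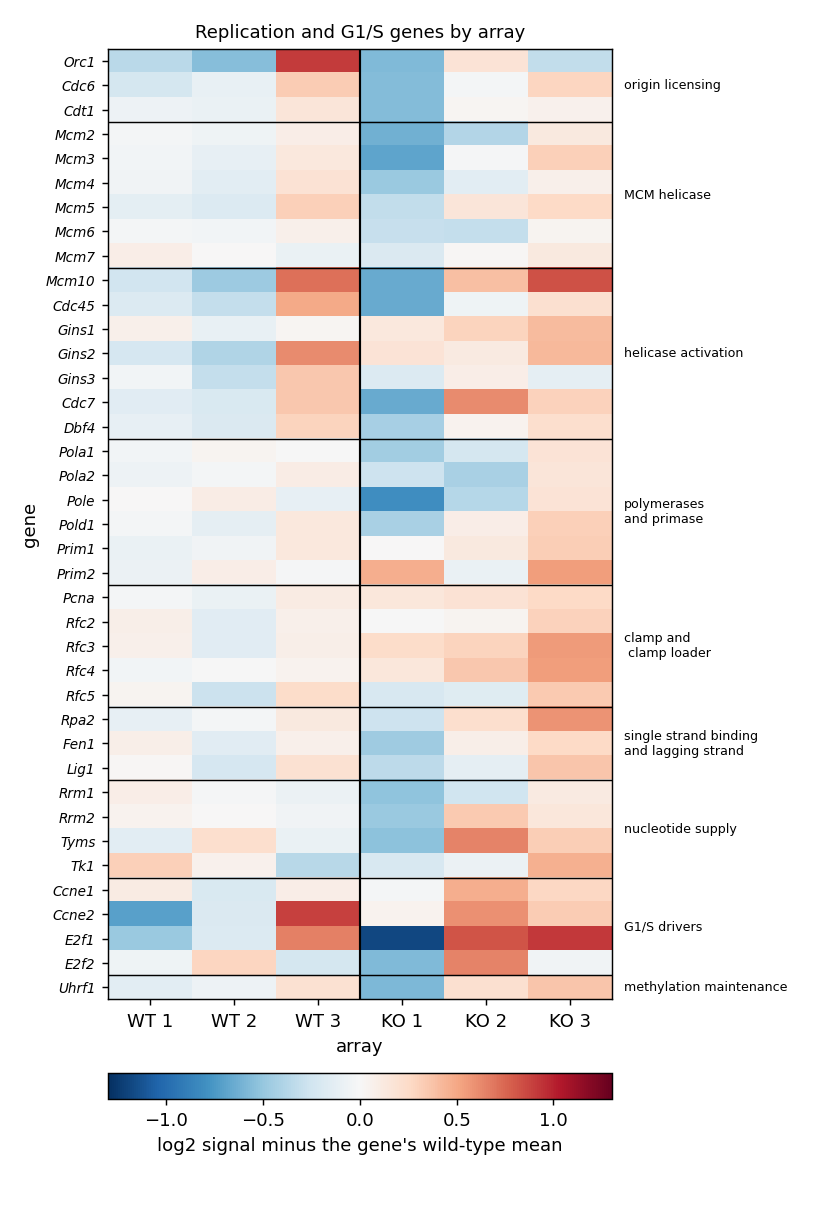
Each row is 1 of the 39 genes and each column 1 array; colour gives the log2 signal minus the gene's wild-type mean, red for higher and blue for lower, with genes grouped by role. Knockout array 1 is mostly blue, with 8 of 39 genes above the wild-type mean, and knockout array 3 mostly red, with 36 of 39.

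The spread inside the knockout group ran the same way in every member. All 39 genes read higher on knockout array 3 than on knockout array 1, where 48.8% of all genes tested did so. The difference between these arrays ranged from 0.06 for Gins3 to 2.10 for E2f1, with a median of 0.62, or 1.54-fold. Knockout array 1 was the lowest of the 6 arrays for 24 members, 61.5%, against 20.8% of all genes tested. Knockout array 3 was the highest for 23 members, 59.0%, against 20.3% of all genes tested. In the wild-type group, array 3 stood above both other arrays for 26 members, 66.7%, against 37.9% of all genes tested. The members' order on these arrays is a description, chosen after the values were seen.

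Dimmer probe sets of the same genes share RNA and array with the main ones. Of 40 further probe sets above the filter, 35 read higher on knockout array 3 than on knockout array 1, although 13 of the 40, from 10 genes, differed between genotypes in the direction opposite to the main one. The count of 39 also held after quantile normalization, and was 38 with the mean over a gene's probe sets. Median centring shifts all genes of an array alike, and it raised knockout array 3 more than any other array. The count of 39 therefore could not fall with it. After median centring 58.2% of all genes tested read higher on knockout array 3 than on knockout array 1. With this scaling knockout array 3 was the highest array for 35 members in place of 23, a count with no share over all genes beside it. The mean of the B cell markers was higher on knockout arrays 1 and 2 than on 3, at 0.75, 1.05 and -0.12 relative to wild type. Cd79b, Ms4a1 and Blnk had this order. Cd79a did not, at 2.49, 2.52 and 2.52, nor did Pax5, at 1.97, 2.06 and 2.63. T cell markers stood at 0.04, -0.05 and -0.66 on knockout arrays 1, 2 and 3 relative to wild type. The part of either in the array differences was not tested.

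**Figure D2:**
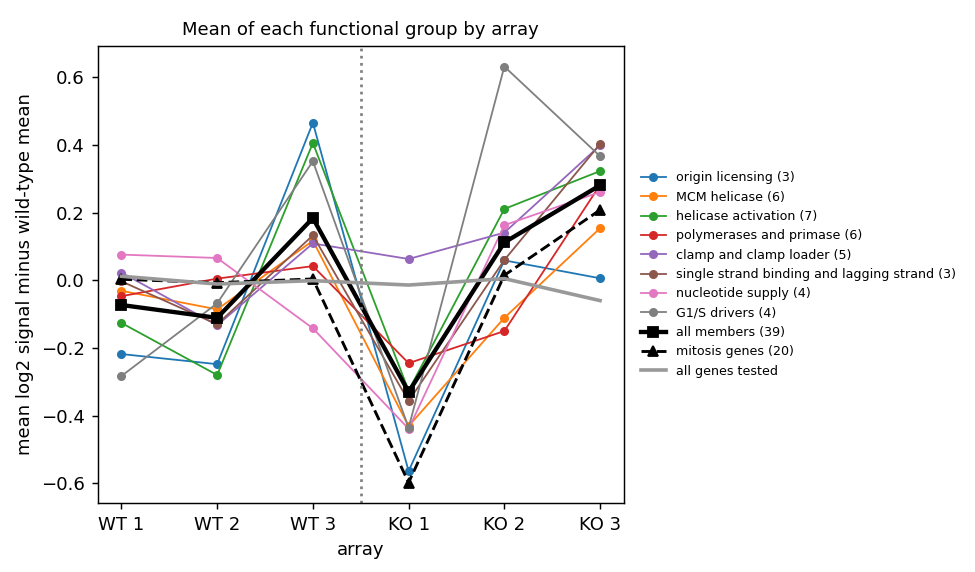
Points give, for each array, the mean log2 signal minus the wild-type mean over the genes of a functional group, with the number of genes in brackets; lines join the points of a group only to make it readable, since replicates have no order. All groups but the clamp and its loader lie below 0 on knockout array 1, as do the mitosis genes at -0.60, and on knockout array 3 all members together lie at 0.28.

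No single member passed the test between genotypes. With limma, 0 of 39 members had an adjusted p under 0.05, as did 0.0% of all genes tested, and the lowest adjusted p among members was 0.634. At an unadjusted p under 0.05 there were 2 members, Rfc4 and Pcna, both higher in knockout, where 3.3% of all genes tested were higher at that p and 4.5% lower. The log2 fold changes of the members lay between -0.33 for Pole and 0.36 for Rfc3. In this fit wild-type arrays 1 and 2, which stood close together, counted as separate samples. Its 95% intervals excluded a difference of 1 on the log2 scale in either direction for 35 members and of 0.5 for 10. For Orc1, Mcm10, Ccne2 and E2f1 the interval reached 1 or beyond in at least 1 direction, so that a change of that size was not excluded there.

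**Figure D3:**
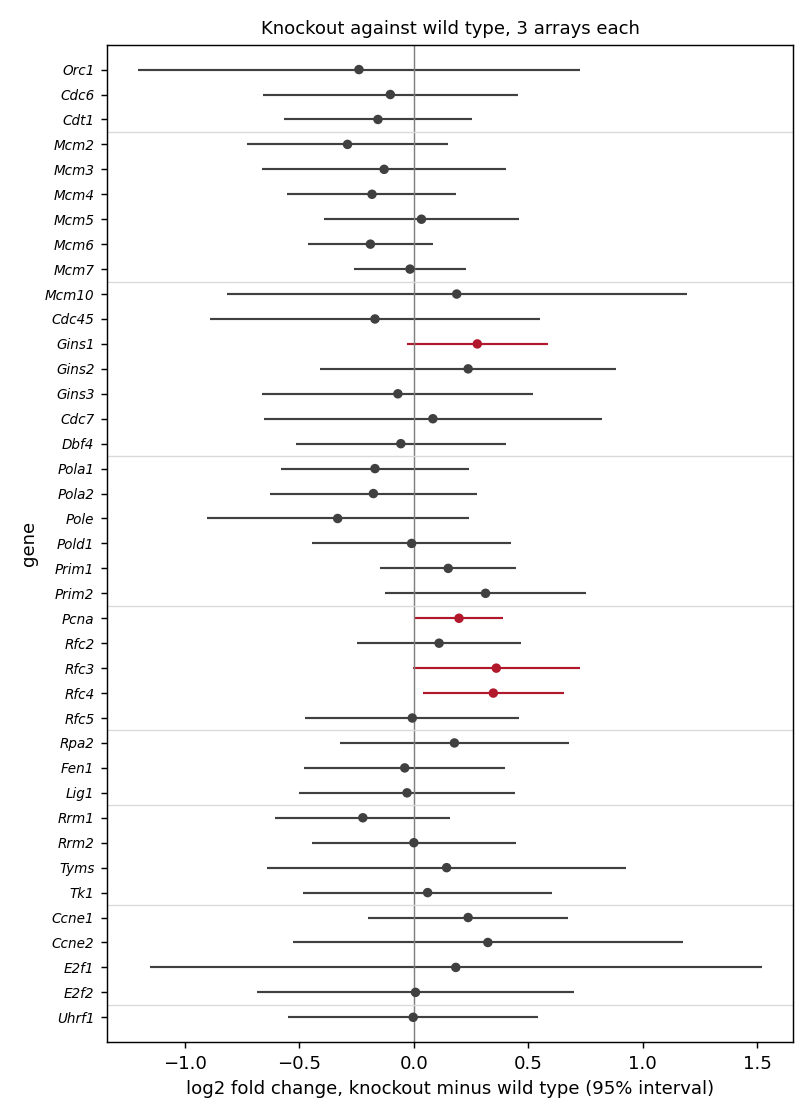
Points are log2 fold changes, knockout minus wild type, for the 39 genes in order of role, and lines are 95% intervals from the limma fit (n = 3 arrays per group). Intervals of all genes but Pcna and Rfc4 cross 0; red marks Gins1, Pcna, Rfc3 and Rfc4, whose groups did not overlap.

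Of the clamp Pcna and 4 small subunits of its loader, 4 of 5 genes stood higher in knockout, by 0.20 on average over the 5, and by 0.10 to 0.27 with single arrays left out. None passed the test. Rfc1, the large subunit of the loader and not a member, went the other way: it read 8.85, 8.68 and 8.57 in wild type and 7.95, 8.56 and 8.76 in knockout, a difference of -0.28 with overlapping groups (adjusted p = 0.758, limma). Pcna, the ring that tethers polymerases to DNA, read 12.92, 12.86 and 13.05 on wild-type arrays 1 to 3 and 13.09, 13.13 and 13.20 on knockout arrays 1 to 3. Every knockout value lay above every wild-type value, and the means differed by 0.20 or 1.15-fold (standard error 0.0844, adjusted p = 0.638, limma; 0.343 to 0.984 over 15 alternatives). Rfc4, a small ATPase subunit of the loader, read 9.66, 9.69 and 9.75 in wild type and 9.85, 10.05 and 10.24 in knockout. Its groups did not overlap either, at 0.35 or 1.27-fold (standard error 0.134, adjusted p = 0.634, limma; 0.325 to 0.984 over 15 alternatives). Its second probe set read 9.38, 9.50 and 9.66 in wild type and 9.99, 9.85 and 10.15 in knockout, again with no overlap and with a difference of 0.48. Rfc3, another subunit, read 8.35, 8.14 and 8.36 in wild type and 8.52, 8.57 and 8.84 in knockout, a difference of 0.36 (adjusted p = 0.642, limma). On its second probe set the groups overlapped, and the difference was 0.19.

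For Rfc2 and Rfc5, further subunits of the loader, the groups overlapped. Rfc2 had a log2 fold change of 0.11, with a 95% interval of -0.25 to 0.47, and Rfc5 had -0.01, with an interval of -0.47 to 0.46. Outside the clamp group, Gins1, a subunit of the GINS complex of the helicase, also had no overlap: it read 9.14, 8.98 and 9.10 in wild type and 9.21, 9.36 and 9.48 in knockout, a difference of 0.28 (adjusted p = 0.664, limma). In all, 4 of 39 members, 10.3%, had every knockout value above every wild-type value, against 5.49% of all genes tested, and 0 had the reverse, against 8.29%. The same 4 genes had no overlap after quantile normalization and with the mean over probe sets; with median centring there were 5, with Ccne1 added, against 9.01% of all genes tested. That Gins1, Pcna, Rfc3 and Rfc4 are among the 8 members above their wild-type means on knockout array 1 follows from their lack of overlap.

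**Figure D4:**
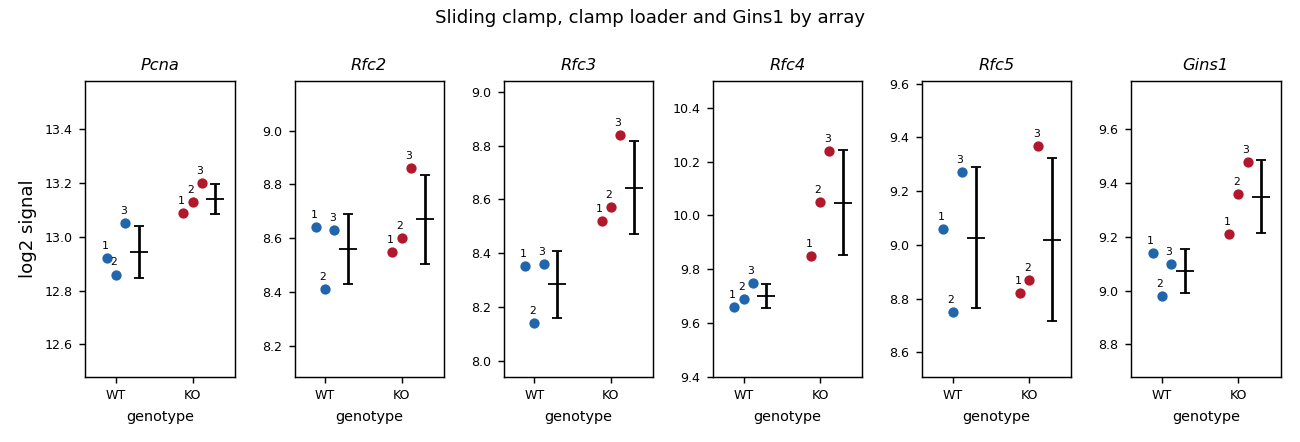
Points are log2 signals on single arrays, numbered by replicate, for Pcna, the 4 Rfc genes among the members and Gins1, without Rfc1; bars beside them are the mean and SD (n = 3), and every panel spans the same height in log2 units. Knockout points lie above all wild-type points for Pcna, Rfc3, Rfc4 and Gins1 and mix with them for Rfc2 and Rfc5.

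The upstream 250 bases of Pcna, Rfc3, Rfc4 and, for contrast, Mcm6 are shown because these are the clamp genes without overlap and a helicase gene with several motifs. They are from RefSeq on GRCm38.p6, read 5′ to 3′ on the strand of the gene and ending at the base before its start, with E2F motifs and CCAAT boxes, on either strand, in capitals.
Pcna, chr2:132253181-132253430, minus strand: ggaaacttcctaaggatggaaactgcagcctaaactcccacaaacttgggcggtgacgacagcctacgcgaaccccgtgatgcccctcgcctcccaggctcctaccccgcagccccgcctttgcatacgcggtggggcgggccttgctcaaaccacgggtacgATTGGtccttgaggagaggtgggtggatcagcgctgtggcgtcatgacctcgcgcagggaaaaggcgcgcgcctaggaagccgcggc
Rfc3, chr5:151651209-151651458, minus strand: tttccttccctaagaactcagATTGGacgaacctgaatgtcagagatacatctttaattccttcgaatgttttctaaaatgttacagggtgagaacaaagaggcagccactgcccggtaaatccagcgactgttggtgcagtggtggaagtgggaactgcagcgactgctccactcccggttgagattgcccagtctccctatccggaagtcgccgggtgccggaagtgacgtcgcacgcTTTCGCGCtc
Rfc4, chr16:23127731-23127980, minus strand: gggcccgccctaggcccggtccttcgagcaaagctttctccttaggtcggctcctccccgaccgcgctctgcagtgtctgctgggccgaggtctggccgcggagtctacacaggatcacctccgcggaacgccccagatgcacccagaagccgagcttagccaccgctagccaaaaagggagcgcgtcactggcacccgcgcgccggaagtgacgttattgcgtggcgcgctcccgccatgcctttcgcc
Mcm6, chr1:128359706-128359955, minus strand: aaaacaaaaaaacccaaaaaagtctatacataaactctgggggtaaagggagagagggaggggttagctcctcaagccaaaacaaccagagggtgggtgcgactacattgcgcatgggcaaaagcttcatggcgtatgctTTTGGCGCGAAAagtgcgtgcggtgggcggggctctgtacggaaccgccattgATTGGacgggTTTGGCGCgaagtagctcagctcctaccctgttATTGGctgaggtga
The Rfc3 window holds an E2F motif directly before the start and a CCAAT box far from it. Pcna holds a CCAAT box and none of the E2F motifs searched, Rfc4 holds neither, and Mcm6 holds E2F motifs and CCAAT boxes side by side. The groups of Mcm6 overlapped in these arrays.

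The MCM helicase genes encode the 6 subunits of the ring that unwinds DNA. As a group they stood slightly lower in knockout, with 5 of 6 lower and a mean log2 fold change of -0.13. With median centring 3 of 6 were lower, but 5 of 6 lay below the median of all genes with either scaling. Without knockout replicate 1, 3 of 6 were lower. Mcm6 read 11.59, 11.58 and 11.68 in wild type and 11.32, 11.31 and 11.65 in knockout, a difference of -0.19 (standard error 0.118, adjusted p = 0.700, limma). Knockout arrays 1 and 2 lay below all wild-type values and knockout array 3 among them. On the second probe set of Mcm6, with a mean log2 signal of 11.025, the difference was -0.01 with overlapping groups. Mcm2 read 9.98, 9.95 and 10.10 in wild type and 9.39, 9.63 and 10.14 in knockout, a difference of -0.29 (adjusted p = 0.711, limma). Its knockout arrays 1 and 2 lay below all wild-type values and knockout array 3 just above them. Its second probe set had a difference of 0.05, so its direction depended on the probe set. Mcm3, Mcm4, Mcm5 and Mcm7 had log2 fold changes of -0.13, -0.18, 0.03 and -0.02. In each of the 6 genes the knockout arrays spanned more than the wild-type arrays, up to 0.99 for Mcm3 against 0.24 in wild type. Further probe sets of Mcm4, Mcm5 and Mcm7 pointed opposite to the main ones, with differences of 0.04 for Mcm4, -0.16 and -0.08 for Mcm5, and 0.03 to 0.14 for Mcm7.

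Origin licensing genes put the helicase in place during G1. All 3 had lower means in knockout, with log2 fold changes of -0.24 for Orc1, -0.10 for Cdc6 and -0.16 for Cdt1. With median centring 2 of 3 were lower, but all 3 lay below the median of all genes with either scaling. Without wild-type replicate 3 or without knockout replicate 1, 1 of 3 was lower. Orc1, the largest subunit of the origin recognition complex, read 5.29, 5.09 and 6.55 in wild type and 5.07, 5.82 and 5.32 in knockout. Its high value on wild-type array 3 set the direction: the log2 fold change was -0.47 with wild-type replicates 1 and 2 averaged, and without array 3 it was 0.21 (adjusted p = 0.875, limma; 0.741 to 0.985 over 15 alternatives). Cdt1, which brings MCM rings to origins, read 10.87, 10.85 and 11.10 in wild type and 10.38, 10.97 and 11.00 in knockout (adjusted p = 0.829, limma). Only knockout array 1 lay outside the wild-type values. Cdc6, the ATPase that acts with ORC, followed the same arrays, at 8.52 on knockout array 1 and 9.36 on knockout array 3.

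Genes that turn the loaded ring into a running helicase went both ways, 4 higher and 3 lower, but 3 and 4 with wild-type replicates 1 and 2 averaged, and without wild-type replicate 3 all 7 were higher. Gins2, a partner of Gins1, read 6.96, 6.79 and 7.80 in wild type and 7.36, 7.30 and 7.60 in knockout, a difference of 0.24 (adjusted p = 0.836, limma). Again wild-type array 3 stood apart: without it the difference was 0.55, without wild-type replicate 1 or 2 it was 0.12 or 0.04, and with these averaged 0.08. Mcm10, which helps the assembled helicase to start, read 6.85, 6.63 and 7.82 in wild type and 6.44, 7.49 and 7.93 in knockout, so that its values covered 1.49 log2 units with overlapping groups. Cdc45, a fixed part of the moving helicase, had -0.17 and Gins3 had -0.07. Cdc7, the kinase that fires origins, had 0.08 and its activator Dbf4 -0.06.

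Polymerase and primase genes had 2 members higher and 4 lower, or 3 and 3 with quantile normalization or median centring. Prim2, the large primase subunit, read 8.53, 8.69 and 8.59 in wild type and 9.08, 8.52 and 9.15 in knockout, a difference of 0.31 (adjusted p = 0.695, limma). Knockout arrays 1 and 3 lay above all wild-type values and knockout array 2 just below them. Pole, the catalytic subunit of the leading strand polymerase, read 8.22, 8.31 and 8.11 in wild type and 7.41, 7.84 and 8.39 in knockout, a difference of -0.33 (adjusted p = 0.740, limma). Here knockout array 1 was lowest and knockout array 3 highest of all arrays. Pola1 and Pola2, of the priming polymerase, had -0.17 and -0.18, Pold1, of the lagging strand polymerase, -0.01, and Prim1, the catalytic primase subunit, 0.15. On the main probe sets all 6 genes had their highest value on knockout array 3. The second probe set of Prim2, with a mean log2 signal of 8.465, was highest on knockout array 1. It read 8.32, 8.20 and 8.57 in wild type and 8.91, 8.17 and 8.62 in knockout, a difference of 0.20.

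Single-strand binding and lagging strand genes followed the arrays in the same way on their main probe sets. Rpa2, a subunit of the complex that coats single-stranded DNA, read 8.91, 8.99 and 9.14 in wild type and 8.74, 9.23 and 9.60 in knockout, a difference of 0.18 (adjusted p = 0.844, limma). Its second probe set had a difference of -0.08. Fen1, the nuclease that trims Okazaki fragments, read 10.32, 10.09 and 10.31 in wild type and 9.78, 10.32 and 10.50 in knockout, a difference of -0.04 that turned to 0.10 with median centring (adjusted p = 0.965, limma). Lig1, which seals these fragments, had -0.03. On the main probe sets of all 3 genes knockout array 1 was the lowest array and knockout array 3 the highest. The second probe set of Rpa2 was lowest on wild-type array 2, at 7.44, and highest on wild-type array 3, at 8.28. That of Fen1 was lowest on knockout array 1 but highest on wild-type array 1, at 9.77 against 9.72 on knockout array 3. Its difference between genotypes was -0.27.

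Nucleotide supply genes provide the building blocks of new DNA. Rrm1, the large subunit of ribonucleotide reductase, read 10.75, 10.65 and 10.59 in wild type and 10.14, 10.40 and 10.78 in knockout, a difference of -0.22 (adjusted p = 0.739, limma). Rrm2, the small subunit, read 12.19, 12.15 and 12.10 in wild type and 11.66, 12.49 and 12.29 in knockout, with equal group means. In wild type these 3 Rrm2 values lay within 0.09, and in knockout they spanned 0.83. Tk1, the thymidine kinase of S phase, had a log2 fold change of 0.06, with its lowest value, 8.39, on wild-type array 3. Tyms, which makes thymidylate, was read only by dim probe sets: the main one read 3.88, 4.23 and 3.93 in wild type and 3.48, 4.66 and 4.33 in knockout, with a log2 fold change of 0.14 (adjusted p = 0.924, limma). Its second probe set read 3.91, 4.58 and 4.16 in wild type and 2.85, 3.23 and 3.67 in knockout, with no overlap and a difference of -0.97 (adjusted p = 0.598, limma over all probe sets). These probe sets point in opposite directions low on the scale, so no direction can be given for Tyms.

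Ccne1 and Ccne2, which encode cyclin E, and the E2F activators E2f1 and E2f2 drive the step from G1 into S phase. All 4 had higher means in knockout, by 0.19 on average, or 0.10 with wild-type replicates 1 and 2 averaged. E2f3, a further E2F activator and not a member, went the other way: it read 7.21, 7.23 and 7.90 in wild type and 6.15, 7.13 and 7.13 in knockout, without overlap and with a difference of -0.64 (adjusted p = 0.666, limma). The direction of the 4 members rested on single arrays: 1 of 4 was higher without wild-type replicate 1 and 2 of 4 without knockout replicate 2, and 3 of 4 were higher with the mean of probe sets. Ccne1 read 7.97, 7.66 and 7.95 in wild type and 7.83, 8.33 and 8.13 in knockout, a difference of 0.24 (adjusted p = 0.758, limma). Its second probe set, at 7.05, 6.96 and 6.68 in wild type and 7.09, 7.17 and 7.56 in knockout, had no overlap and a difference of 0.38. Ccne2 read 7.81, 8.33 and 9.40 in wild type and 8.56, 9.11 and 8.84 in knockout, a difference of 0.32 (adjusted p = 0.830, limma). Its wild-type arrays spanned 1.59, more than its knockout arrays at 0.55, and the difference was -0.03 without wild-type replicate 1 and 0.10 with wild-type replicates 1 and 2 averaged. E2f1 covered the widest range of all members: it read 4.90, 5.21 and 6.04 in wild type and 4.20, 6.20 and 6.30 in knockout, with a log2 fold change of 0.18 and a 95% interval of -1.15 to 1.52. E2f2 had a log2 fold change of 0.01, with its lowest value on knockout array 1 and its highest on knockout array 2.

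Uhrf1, which recruits the maintenance DNA methyltransferase to new DNA, read 11.24, 11.31 and 11.58 in wild type and 10.79, 11.59 and 11.74 in knockout. Its group means were nearly equal, with a log2 fold change of -0.003 and a 95% interval of -0.55 to 0.54; the sign turned with median centring (0.14). On knockout array 1 it stood at -0.59 relative to its wild-type mean, and on knockout array 3 at 0.36.

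The counts at an unadjusted p depended on which knockout array was kept. Without knockout replicate 1, 6 members had an unadjusted p under 0.05, all higher in knockout: Gins1, Pcna, Rfc3, Rfc4, Rpa2 and Rrm2; in the same fit 2.8% of all genes tested were higher at that p and 6.8% passed it in either direction. Without knockout replicate 3, 5 members did, all lower: Mcm2, Mcm6, Pola1, Pole and Rrm1, against 4.29% of all genes tested lower and 8.94% in either direction. The direction of the members followed the array left out: 30 of 39 were higher without knockout replicate 1 and 12 of 39 without knockout replicate 3. Without wild-type replicate 3 there were 4, all higher, Gins2, Pcna, Rfc4 and Ccne2, against 4.02% of all genes tested higher and 9.79% in either direction. There were 0 with wild-type replicates 1 and 2 averaged, where 4.0% of all genes tested had such a p, and 0 without wild-type replicate 1 or 2, where 3.42% and 5.11% did. Without knockout replicate 2 there was 1, Prim2, against 9.38%. In each of these fits 0 members passed the adjusted threshold.

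Other genes of the same process were also low on knockout array 1, but their highest mean was on wild-type array 3. Of 45 further replication genes, 42 were tested, 18 higher and 24 lower in knockout (26 and 16 with median centring). Relative to the median of all genes, 20 were higher and 22 lower with either scaling. Past the threshold were 0 in either direction, and the median log2 fold change was -0.04, against -0.01 over all genes tested. Set against wild type, the 42 genes averaged -0.36, -0.03 and 0.14 on the knockout arrays in order and 0.17 on wild-type array 3. Knockout array 1 was the lowest array for 29 of the 42, against 20.8% of all genes tested. Knockout array 3 was the highest for 16 of the 42, against 20.3%. The smallest p belonged to Clspn, a checkpoint mediator at the fork, with a log2 fold change of -0.49, Ticrr, which helps origins fire, with -0.65, Orc5 with -0.32 and Topbp1 with -0.37, with adjusted p of 0.654 to 0.668 (limma). Clspn read 8.22, 8.17 and 8.13 in wild type and 7.24, 7.70 and 8.11 in knockout, without overlap by a narrow margin.

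Mitosis genes, which act after replication is complete, had 20 of 21 members tested. Of these, 5 were higher and 15 lower in knockout, or 12 and 8 with median centring. Relative to the median of all genes, 6 were higher and 14 lower with either scaling. On knockout array 1 all 20 had their lowest value of the 6 arrays, and the list averaged -0.60, 0.01 and 0.21 on the knockout arrays in order, where the wild-type arrays lay at -0.01 to 0.00. Bub1b, a spindle checkpoint kinase, read 9.92, 9.87 and 9.39 in wild type and 8.22, 9.31 and 9.99 in knockout, which holds both its lowest and its highest value. Cenpf had a log2 fold change of 0.45, Kif11 -0.32 and Kif20a -0.33, and 0 passed the threshold. Knockout array 1 was thus low in S phase and mitosis genes alike, whereas wild-type array 3 was higher than the other wild-type arrays in replication genes, at 0.18, and not in mitosis genes, at 0.00; the difference between the lists was not tested.

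Regulators of the G1/S step had 23 of 25 members tested, 9 higher and 14 lower in knockout (12 and 11 with median centring). Relative to the median of all genes, 9 were higher and 14 lower with either scaling. The median difference was -0.13, and 0 passed the threshold. At an unadjusted p under 0.05 there were 4 of 23, all lower, where 4.5% of all genes tested were lower at that p and 3.3% higher. Fbxw7, whose ubiquitin ligase degrades cyclin E and activated NOTCH1, read 8.38, 8.75 and 8.11 in wild type and 7.59, 7.99 and 7.62 in knockout (log2 fold change -0.68, adjusted p = 0.629, limma). Cdc25a, the phosphatase that activates CDK2, read 8.42, 8.31 and 8.74 in wild type and 7.68, 8.05 and 8.24 in knockout (log2 fold change -0.50, adjusted p = 0.634, limma). Neither gene's groups overlapped. Among the 23 genes, 3 had every knockout value below every wild-type value, against 8.29% of all genes tested. Tfdp1, the partner of E2F proteins on DNA, had -0.38. Ccnd1, a D cyclin, read 8.33, 8.48 and 3.80 in wild type and 3.01, 4.76 and 2.27 in knockout, so that only wild-type arrays 1 and 2 were high and wild-type array 3 lay among the knockout arrays.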

How the data were processed

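The deposited values are log2 signals of 45101 probe sets on 6 one-colour arrays. Per the submitters' processing notes the authors used GCRMA, a method that corrects background by probe sequence and normalizes between arrays; its version is not stated in these notes, and the base of the logarithm was read from the range of the values. Per the labels' protocols, 10 ng of RNA per sample was amplified before labelling, which can alter relative levels. Values were used as deposited.

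Names came from the platform annotation, in which 34958 probe sets had 1 symbol, 932 several and 9211 none, and only the first were used. Each gene was represented by its probe set with the highest mean, and 12565 of 18194 genes were tested, those whose mean exceeded 2.04, the percentile 40 of probe set means. Knockout minus wild type was fitted with limma 3.58.1 in R 4.3.3 (lmFit and eBayes with an intensity trend, two-sided, Benjamini-Hochberg over all genes tested, threshold 0.05). With 3 arrays against 3, an exact permutation test could not give a p below 0.1 and was not run. The fit was tested on simulated data. The number of arrays limits the precision.

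The members and lists were chosen with earlier results of these data known. Values on every array are given for members whose groups did not overlap, with an unadjusted p under 0.05, with a difference of 0.5 or more in size, and for the 2 of each role with the smallest p. Any member may be named, as may Sh2b3, cell type markers and probe sets that oppose the main one. From other lists the members past the threshold, or up to 4 with the smallest p, are named. The array values of Mcm10, Rrm2 and E2f1 and the further probe sets of Rfc3, Rfc4 and Ccne1, and the genes Rfc1 and E2f3 from the other lists, were chosen after their values were seen. Alternatives changed the normalization, the filter, the variance prior, weights of arrays, the replicate block and the averaging of probe sets, left out each array, or averaged wild-type replicates 1 and 2. No pseudocount applies to logarithms.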

Additional observations from a re-analysis of the deposited data

How the results depend on the processing

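The number of members past the threshold was 0 under every alternative run, among them all probe sets and an adjusted p under 0.1. The mean log2 fold change over members ranged from -0.11 to 0.20 with single arrays left out, and was -0.03 with wild-type replicates 1 and 2 averaged. Genes past the threshold among all tested numbered 0, but 1 with array weights and 0 to 51 with single arrays left out. Members at an unadjusted p under 0.05 numbered 2, but 0 with a constant prior variance, 4 with median centring, 0 with wild-type replicates 1 and 2 averaged and 0 to 6 with single arrays left out. Members with a higher mean in knockout numbered 18, but 29 with median centring and 12 to 30 with single arrays left out. Some settings were added after the data were seen. The highest array was knockout replicate 3 for 35 members with median centring, which raised that array most. With the mean of probe sets 1 member, Pola1, had every knockout value below wild type. The 18 members that the rule chose for values on every array, without Mcm10, Rrm2 and E2f1, had 270 refits. Of these, 256 kept their direction, 13 changed sign, and 1, Fen1 without wild-type replicate 1, gave a difference of 0. Changes of the filter, the variance prior or the replicate block could not alter a fold change, so those refits say nothing on direction. No member was past the threshold in any refit. The sign turned for Fen1 (0.10) and Uhrf1 (0.14) with median centring, for Orc1 (0.10) and Uhrf1 (0.067) with array weights, and for Tyms (-0.17) with the mean of probe sets. With single arrays left out it turned for 7 members, whose values ranged from -0.028 to 0.767 for Ccne2, -0.265 to 0.045 for Cdt1, -0.19 to 0.17 for Fen1, -0.517 to 0.213 for Orc1, -0.028 to 0.402 for Rpa2, -0.11 to 0.482 for Tyms and -0.187 to 0.288 for Uhrf1. Genes past the threshold numbered 51 without wild-type replicate 3, 3 without knockout replicate 1 and 1 without knockout replicate 3. The cause was not tested. Deviations of same-numbered arrays correlated at -0.04, -0.05 and -0.05, and those of differently numbered arrays at -0.051 to 0.085. Such values cannot tell whether same-numbered samples were handled together. With the replicate block 0 members passed, 2 had an unadjusted p under 0.05, and the mean log2 fold change of the members was 0.02, with 0 genes past the threshold. Low signals, as for Tyms, limit what can be read.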
